A study of Homo sapiens with 9 samples.

Results

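The genes described here set, read and remove 5-methylcytosine, the methyl mark that vertebrate cells place on cytosines followed by guanine (CpG). They were DNMT1, DNMT3A and DNMT3B (writers), UHRF1, UHRF2 and MBD2 (readers), and TET1, TET2 and TET3 (erasers). Members were chosen by name, and a probe was taken where the RefSeq accession given for it by the array design maps to 1 of these 9 genes. Of the 42405 probes on the array, 17 met this rule, for 8 of the 9 genes. No probe matched TET3, so its level was not analysed here. The remaining genes had 1 probe (DNMT1, DNMT3B), 2 probes (UHRF1, UHRF2, TET1, MBD2), 3 probes (DNMT3A) or 4 probes (TET2).

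The samples were stable populations of HEK293, a line derived from human embryonic kidney. All had been infected with a retroviral vector that expresses a short hairpin RNA (shRNA) beside GFP and a puromycin resistance gene, and had been selected with puromycin. SmcHD1, the target of the study, is a non-canonical SMC protein required for X inactivation in mice. The groups were shRNA 3 against SmcHD1 (KD3, n = 3 arrays), shRNA 4 against SmcHD1 (KD4, n = 3) and the control shRNA NC5 (CTL, n = 3). The methods call the replicates biological triplicates without saying whether each came from its own infection, so that the tests measure the spread between these samples. A change shared by KD3 and KD4 was measured against the same CTL arrays.

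DNA methyltransferases work in 2 modes. DNMT3A and DNMT3B methylate unmarked CpG sites, and DNMT1 copies the mark to the new strand after replication, brought there by UHRF1, which binds hemimethylated CpG. TET enzymes oxidize 5-methylcytosine, and base excision repair or replication then removes the oxidized base. MBD2 binds methylated CpG and recruits NuRD, a complex that remodels nucleosomes and deacetylates histones. The question asked of these arrays was whether transcripts of this machinery differed when SmcHD1 was depleted.

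The hairpins are shown because they define the groups. Each has 68 bases, with a pair of arms of 25 bases in capitals, of which 23 pair with each other.
shRNA 3: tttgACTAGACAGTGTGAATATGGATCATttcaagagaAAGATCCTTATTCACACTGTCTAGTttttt
shRNA 4: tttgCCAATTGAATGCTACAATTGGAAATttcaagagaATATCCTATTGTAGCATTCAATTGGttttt
shRNA NC5: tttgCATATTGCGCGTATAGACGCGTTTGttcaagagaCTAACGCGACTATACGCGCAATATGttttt

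The start regions of MBD2 and TET2 are shown because these genes held the probes called in both knock-downs. The runs are the 250 bases before each start listed in RefSeq, 1 for MBD2 and 2 for TET2 (GRCh38.p14), 5′ to 3′ on the gene's strand, with each CpG in capitals. MBD2 (chr18:54224670-54224919, minus strand) held 21 CpG, a number reached by 30.2% of such windows over all genes. TET2 held 10 CpG before start 1 (chr4:105145625-105145874, plus strand), reached by 52.2%, and 34 before start 2 (chr4:105146626-105146875, plus strand), reached by 6.8%. The CpG letters say nothing of whether a site is methylated, which the arrays do not measure.
MBD2: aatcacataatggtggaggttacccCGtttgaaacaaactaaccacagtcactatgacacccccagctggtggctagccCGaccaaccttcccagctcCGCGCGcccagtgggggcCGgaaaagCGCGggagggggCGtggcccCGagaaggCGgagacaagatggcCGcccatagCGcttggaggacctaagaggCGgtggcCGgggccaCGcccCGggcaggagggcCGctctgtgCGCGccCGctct
TET2 start 1: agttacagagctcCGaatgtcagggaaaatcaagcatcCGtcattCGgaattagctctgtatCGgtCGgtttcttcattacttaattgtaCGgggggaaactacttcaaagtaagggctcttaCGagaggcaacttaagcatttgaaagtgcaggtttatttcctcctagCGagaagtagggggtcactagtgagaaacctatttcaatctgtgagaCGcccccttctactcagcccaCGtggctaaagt
TET2 start 2: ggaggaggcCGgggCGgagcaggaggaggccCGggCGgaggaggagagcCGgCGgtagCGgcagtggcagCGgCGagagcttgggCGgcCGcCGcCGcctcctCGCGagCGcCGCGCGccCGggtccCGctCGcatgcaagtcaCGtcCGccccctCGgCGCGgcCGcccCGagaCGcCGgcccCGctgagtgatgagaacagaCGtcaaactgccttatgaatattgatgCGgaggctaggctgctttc

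All values below are quantile normalized log2 signals, on which a difference of 1 is a doubling, and are comparable between arrays for a probe but not between probes. Tests were made with limma over all 9 arrays. A call was an adjusted p under 0.05 by Benjamini-Hochberg over the 32276 tested probes, those well above background on all 3 arrays of 1 or more groups, and a large call was also at least 1.8-fold. All 17 member probes were tested, and 16 of them were well above background on all 9 arrays. Array medians of the signal ran from 119.6 to 181.4, between 75.1 and 79.8% of probes were well above background, and no spot was saturated. Replicates correlated at 0.995 to 0.996 over probes. All 3 SMCHD1 probes were lower on each knock-down array than on any CTL array. On the brightest, SMCHD1 was at 51.0% of CTL in KD3 (limma, adjusted p = 2.14e-04) and at 34.6% in KD4 (adjusted p = 1.81e-05).

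Most probes of the methylation machinery were not called, and the calls fell on 5 probes of 3 genes (DNMT3B, TET2 and MBD2). In KD3, 4 of the 17 probes were called, 2 higher and 2 lower, beside 20% of all tested probes (9.64% higher and 10.4% lower). In KD4, 3 of 17 were called, 1 higher and 2 lower, beside 28.3% of all tested probes (13.6% higher and 14.8% lower). The lower ones included the dim TET2 probe of NM_017628, which passed the filter only through CTL and KD3. With a filter on all 9 arrays the KD4 count was 2. A pair of probes was called in the same direction in both knock-downs, namely MBD2 under accession NM_015832 (lower) and TET2 probe A_33_P3238685 (higher), beside 15.5% of all probes. These shares of the members are near or below the background. On the brightest probe of each gene, the measure used for the lists below, 2 of 8 members were called in KD3, beside 25.2% of genes. On that measure 0 of 8 were called in KD4 (34.5% of genes) and 0 of 8 in both in the same direction (20%). The MBD2 probe was the 1 large call, in KD3 (beside 3.32% of all probes), in KD4 (4.6%) and in both in the same direction (2.4%). The 3 arrays of KD3 did not overlap those of CTL for 5 of 17 probes (36% of all tested probes), nor those of KD4 for 8 of 17 (44.9%). The median log2 difference from CTL over the 17 probes was 0.02 in KD3 and -0.06 in KD4, beside 0.01 and 0.04 over all tested probes. Between KD4 and KD3 no member was called (2.47% of all probes were). By the methods' t-test without adjustment 3 of 17 had a p under 0.05, beside 15.2% of all tested probes.

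**Figure D1:**
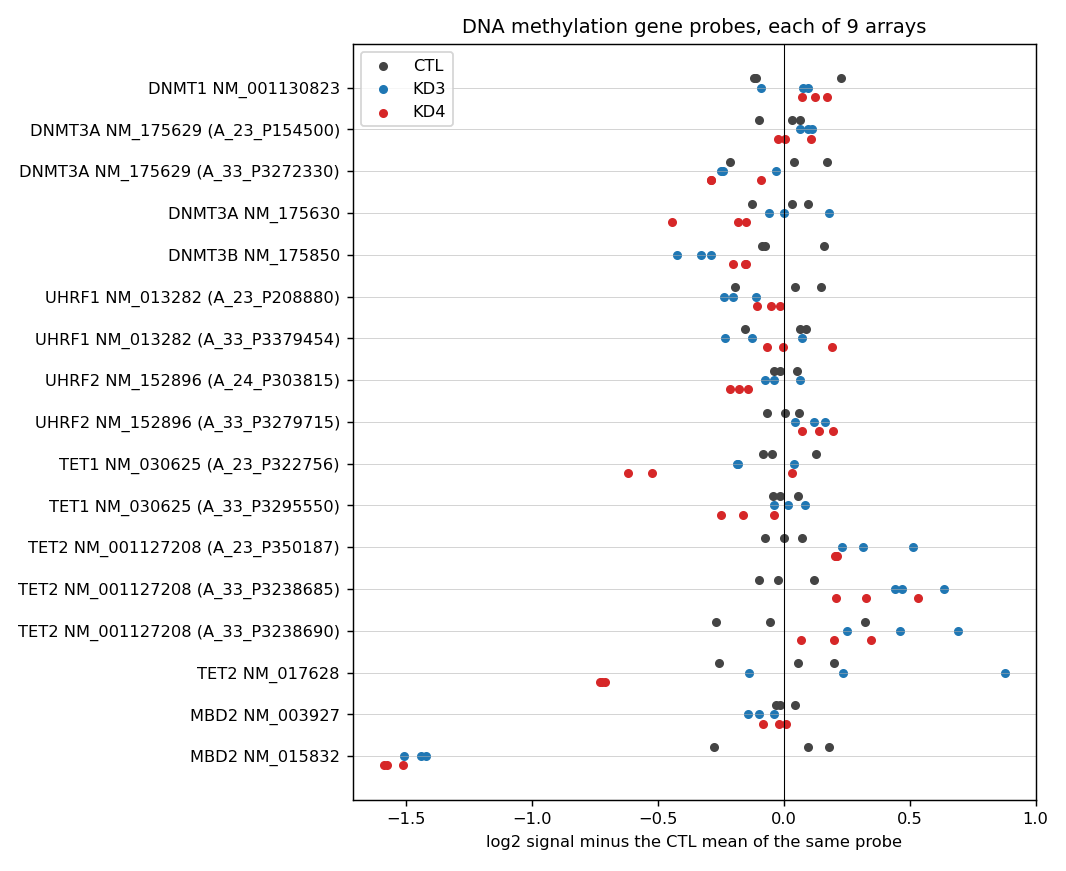
Difference of each array from the CTL mean (log2) for the 17 probes of 8 DNA methylation genes, by group (CTL, KD3, KD4; 3 arrays each). The MBD2 probe of NM_015832 stands near -1.5 in all 6 knock-down arrays, and the other 16 lie closer to 0.

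Among the writers, DNMT3B was called lower in KD3, and DNMT1 and DNMT3A were not called in either knock-down. The DNMT1 probe stood at 13.80, 14.14 and 13.81 in CTL, at 14.01, 13.99 and 13.83 in KD3 and at 14.09, 14.04 and 13.99 in KD4. The groups overlapped, and the difference from CTL was 0.03 in KD3 (95% interval -0.21 to 0.27) and 0.12 in KD4 (-0.12 to 0.36).

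DNMT3B, a de novo methyltransferase expressed in embryonic and many transformed cells, gave 11.81, 12.05 and 11.82 in CTL, then 11.61, 11.47 and 11.57 in KD3 and 11.74, 11.69 and 11.74 in KD4. All 6 knock-down arrays were below the CTL arrays. The mean fell from 11.89 ± 0.14 (SD, n = 3) to 11.55 ± 0.07 in KD3, a difference of -0.35 (SE 0.08, limma, adjusted p = 0.0209) or 78.7% of CTL. In KD4 the mean was 11.73 ± 0.03, a difference of -0.17 (95% interval -0.36 to 0.02, adjusted p = 0.169). The difference between the knock-downs, 0.18, was not called (adjusted p = 0.290), so that DNMT3B is not shown to respond differently to the shRNAs. Within each of the 2 slides KD3 was below CTL (-0.47 and -0.22). Slide 1 held 2 CTL arrays and 1 KD3 array, and slide 2 held 1 CTL array and 2 KD3 arrays. Without KD3 replicate 2 the KD3 difference was -0.31 (adjusted p = 0.0745), and without KD3 replicate 3 it was -0.36 (adjusted p = 0.053). DNMT3B lies on chromosome 20, whose 458 tested genes had a median difference of -0.20 in KD3 and -0.10 in KD4. The part of this chromosome-wide shift in the DNMT3B value was not tested.

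The 3 DNMT3A probes, 2 under accession NM_175629 and 1 under NM_175630, differed from CTL by -0.17 to 0.09 in KD3 and -0.26 to 0.03 in KD4, with no call. The NM_175630 probe gave 6.66, 6.60 and 6.44 in CTL, 6.75, 6.51 and 6.57 in KD3 and 6.39, 6.42 and 6.12 in KD4. Its KD4 arrays all stood below CTL (difference -0.26, limma, adjusted p = 0.110), and its KD3 arrays overlapped CTL.

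The readers of hemimethylated DNA showed no call. UHRF1 on its brighter probe gave 13.84, 14.19 and 14.09 in CTL, 13.84, 13.93 and 13.80 in KD3 and 13.99, 13.93 and 14.03 in KD4. The difference was -0.18 in KD3 (limma, adjusted p = 0.221) and -0.06 in KD4. Without CTL replicate 1 the KD3 value was -0.28 (adjusted p = 0.0441). The other UHRF1 probe differed by -0.09 and 0.04.

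UHRF2, a paralogue of UHRF1 that does not replace it in maintenance, had probes with differences of opposite sign in KD4. Probe A_24_P303815 gave 6.97, 6.88 and 6.91 in CTL and 6.74, 6.78 and 6.71 in KD4, and probe A_33_P3279715 gave 9.52, 9.65 and 9.59 in CTL and 9.66, 9.78 and 9.73 in KD4. The arrays did not overlap on either, but neither difference was called (-0.18, limma, adjusted p = 0.0800, and 0.14, adjusted p = 0.183). Over the 10 probes of DNMT1, DNMT3A, UHRF1, UHRF2 and TET1 the 95% intervals lay within -0.74 and 0.36. A change of more than 1.67-fold on any of these probes is outside its interval in both knock-downs.

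**Figure D2:**
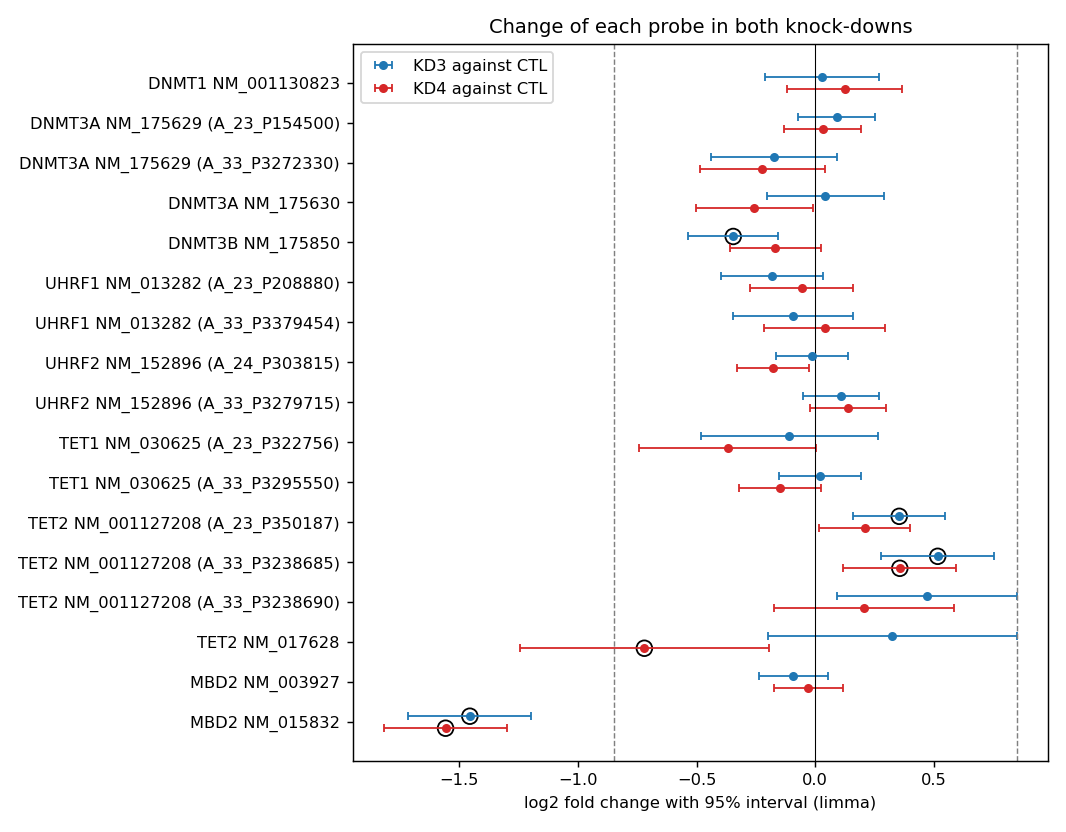
log2 difference from CTL with its 95% interval for each of the 17 probes in KD3 and KD4 (n = 3 arrays a group); black circles mark an adjusted p under 0.05 and dashed lines a 1.8-fold change. The MBD2 probe of NM_015832 (-1.46 and -1.56) is the only point past the dashed line with a call.

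TET1, an eraser with a CXXC domain that binds CpG, was not called on its probes. Probe A_23_P322756 gave 9.34, 9.51 and 9.30 in CTL, 9.43, 9.20 and 9.20 in KD3 and 9.42, 8.77 and 8.86 in KD4. The KD4 arrays spread widely (SD 0.35), since replicate 1 stood within the CTL range and the others below it. The KD4 difference was -0.37 (95% interval -0.74 to 0.004, limma, adjusted p = 0.128). Without KD4 replicate 1 it was -0.57 (adjusted p = 0.0101). The other TET1 probe gave -0.15 in KD4 (adjusted p = 0.182) and 0.02 in KD3.

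TET2 is the eraser often mutated in blood cancers, and it lacks the CXXC domain of its relatives. It had 3 probes under NM_001127208, the full-length form, and 1 under NM_017628, a shorter form without the catalytic domain. Probe A_33_P3238685 gave 8.17, 7.95 and 8.02 in CTL, 8.68, 8.49 and 8.51 in KD3 and 8.58, 8.25 and 8.37 in KD4. Each knock-down array was above each CTL array. The difference was 0.52 in KD3 (SE 0.10, limma, adjusted p = 0.00973, 1.43-fold) and 0.36 in KD4 (adjusted p = 0.0337, 1.28-fold). The KD3 call held in each fit without 1 array and was lost by the methods' t-test after adjustment (adjusted p = 0.0822). The KD4 call held in 5 of 9 and was lost without KD4 replicate 1 (0.27, adjusted p = 0.106), KD4 replicate 3 (adjusted p = 0.0747), CTL replicate 2 (0.31, adjusted p = 0.0956) or CTL replicate 3 (adjusted p = 0.0882). It was also lost with the authors' log2 values (adjusted p = 0.0515), with no filter on dim probes (adjusted p = 0.0553), in the fit with CTL alone (adjusted p = 0.0568) and by the methods' t-test (adjusted p = 0.152).

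The second full-length probe, A_23_P350187, gave 8.76, 8.83 and 8.68 in CTL, 9.27, 9.07 and 8.99 in KD3 and 8.96, 8.96 and 8.97 in KD4. Again every knock-down array lay above CTL. The KD3 difference of 0.35 was called (SE 0.08, limma, adjusted p = 0.0203, 1.28-fold), and the KD4 difference of 0.21 was not (adjusted p = 0.101). The KD3 call was lost without CTL replicate 3 (0.32, adjusted p = 0.0669), in the fit with CTL alone (adjusted p = 0.0617) and by the methods' t-test after adjustment (adjusted p = 0.179). The third, A_33_P3238690, differed by 0.47 (adjusted p = 0.0836) and 0.20 (adjusted p = 0.396), with overlapping arrays. The full-length probes thus had positive differences in both knock-downs, of which 2 of 3 were called in KD3 and 1 of 3 in KD4, and none reached 1.8-fold.

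The NM_017628 probe was dim and gave 4.02, 4.34 and 4.48 in CTL, 4.14, 4.51 and 5.16 in KD3 and 3.57, 3.56 and 3.55 in KD4. It was well above background on 3 of 3 CTL, 3 of 3 KD3 and 2 of 3 KD4 arrays. It passed the filter through CTL and KD3, where its signal was higher. A lower call in KD4 is thus partly tied to the filter. Its KD4 difference was -0.72 (SE 0.23, limma, adjusted p = 0.0466), and its KD3 difference was 0.33 (adjusted p = 0.376). KD4 against KD3 was -1.05 (adjusted p = 0.0556), and without KD3 replicate 1 it was -1.28 (adjusted p = 0.0383). The KD4 call held in 7 of 19 alternatives. It was lost with no filter on dim probes (limma, adjusted p = 0.0817). With scaling to the 75th percentile the value was -0.52 (adjusted p = 0.221), and with normexp background correction it was -0.24 (adjusted p = 0.0635). The gap between the NM_017628 probe and the mean of the full-length probes was -3.55 ± 0.23 (SD, n = 3) in CTL, -3.68 ± 0.66 in KD3 and -4.53 ± 0.08 in KD4. Only the KD4 arrays all lay below CTL, and over the 6 knock-down arrays the difference was -0.55, with an exact two-sided permutation p of 0.179.

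**Figure D3:**
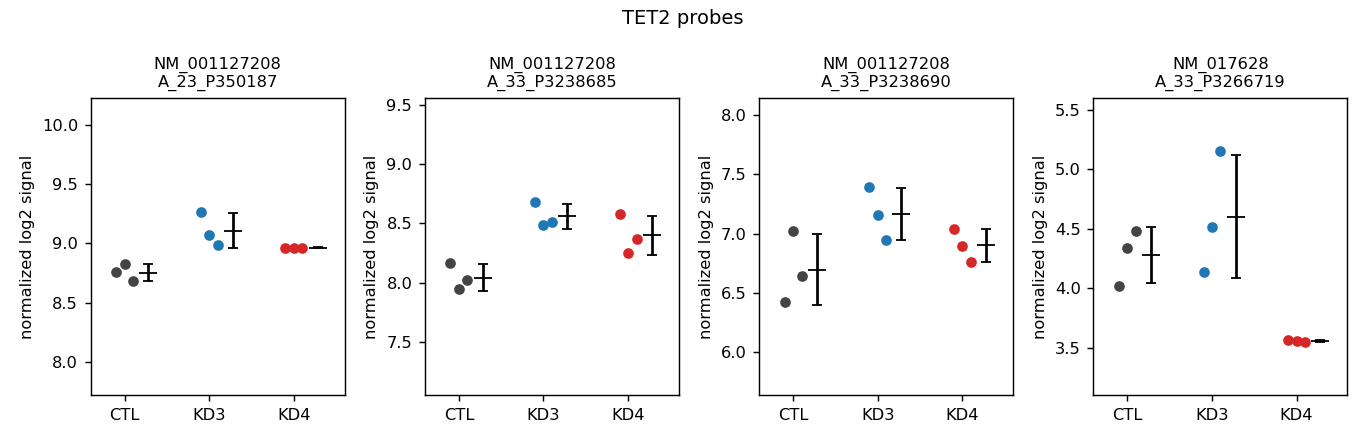
log2 signal of the 4 TET2 probes on each array, by group, with mean ± SD (n = 3). The 3 probes of NM_001127208 have higher means in both knock-downs than in CTL, while the dim probe of NM_017628 lies between 3.55 and 3.57 in KD4.

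MBD2 gave the largest difference of the members, on 1 of its probes. The NM_015832 probe, listed for the variant first described in testis, whose alternative 3′ end leaves out the C-terminal part of the protein, gave 9.37, 9.45 and 9.00 in CTL. It gave 7.84, 7.77 and 7.86 in KD3 and 7.77, 7.70 and 7.69 in KD4. The highest knock-down array was more than 1 log2 unit below the lowest CTL array. The mean was 9.28 ± 0.24 (SD, n = 3) in CTL, 7.82 ± 0.05 in KD3 and 7.72 ± 0.04 in KD4. The difference was -1.46 in KD3 (SE 0.11, 95% interval -1.71 to -1.20, limma, adjusted p = 9.19e-05), or 36.5% of CTL. In KD4 it was -1.56 (SE 0.11, -1.82 to -1.30, adjusted p = 4.90e-05), or 34.0%. KD4 against KD3 was -0.10 (95% interval -0.36 to 0.16, adjusted p = 0.661). The arrays lay on a pair of slides, and within these KD3 differed from CTL by -1.46 and -1.53 and KD4 by -1.53 and -1.61. Slide 1 held 2 CTL, 1 KD3 and 2 KD4 arrays, and slide 2 held 1, 2 and 1.

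The NM_003927 probe, listed for the full-length MBD2, was not called in either knock-down. It gave 13.40, 13.48 and 13.42 in CTL, 13.40, 13.34 and 13.29 in KD3 and 13.42, 13.36 and 13.44 in KD4. Its KD3 arrays all stood below CTL (highest KD3 array 13.395, lowest CTL array 13.405), and its KD4 arrays overlapped CTL. The differences were -0.09 in KD3 (95% interval -0.24 to 0.05, limma, adjusted p = 0.361) and -0.03 in KD4 (-0.17 to 0.12, adjusted p = 0.766).

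The gap between the MBD2 probes, NM_015832 minus NM_003927, was -4.03, -4.02 and -4.42 in CTL, -5.56, -5.57 and -5.44 in KD3 and -5.65, -5.65 and -5.76 in KD4. It was lower in the 6 knock-down arrays by 1.45, with an exact two-sided permutation p of 0.0119, the smallest that 6 against 3 arrays can give. This gap was chosen after the values were seen, so that p is a description. Among the 3938 genes with several tested probes, the median spread between their probes' differences was 0.15 in KD3 and 0.19 in KD4. MBD2 had 1.36 and 1.53, and 24 genes (0.609%) had at least as large a spread in both. RefSeq listed 1 start for MBD2, printed above, and the use of starts was not measured. Probe sequences were not used here, so each probe stands for the accession the array design lists.

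**Figure D4:**
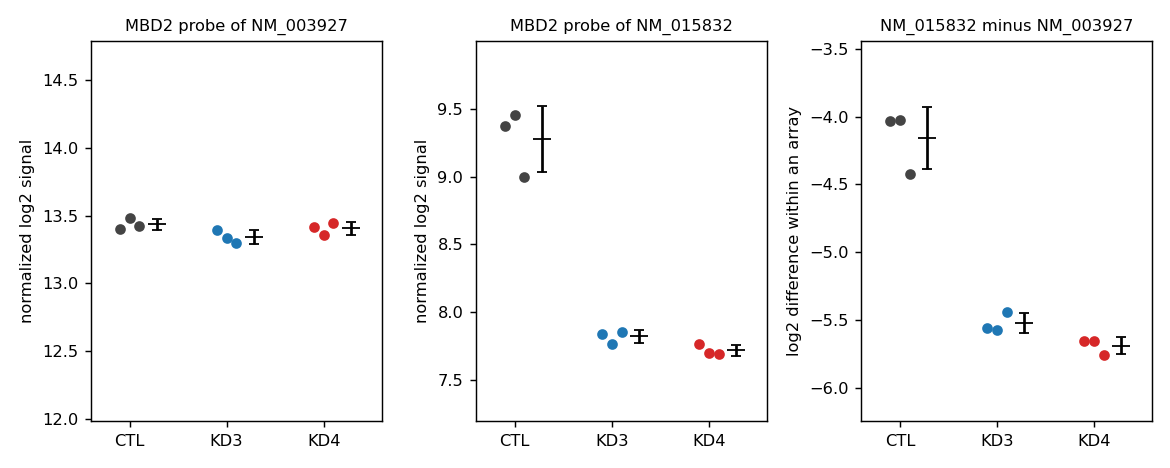
log2 signal of the MBD2 probes on each array and, on the right, their difference within an array, by group, with mean ± SD (n = 3). The NM_015832 probe falls from 9.28 in CTL to 7.82 in KD3 and 7.72 in KD4, while the NM_003927 probe stays between 13.29 and 13.48.

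The genes around the members in the annotation were given by values chosen after they were seen. Near MBD2, MEX3C differed by -0.16 and -0.22 and POLI by 0.14 and 0.08 (KD3 and KD4). C18orf54 was higher in KD3 (0.36, limma, adjusted p = 0.0163), with 0.22 in KD4 (adjusted p = 0.0728). Near TET2, CXXC4 differed by -1.11 and -1.05 (limma, adjusted p = 2.68e-05 and 3.55e-05). PPA2 differed by -0.07 and -0.05, ARHGEF38 by 0.18 and -0.12 and INTS12 by 0.15 and 0.16.

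Partners of the writers, readers and erasers were described by lists, with 1 probe a gene, the brightest over all arrays. Over all 16082 genes tested, 10.4% were higher and 14.8% lower in KD3, and 14.7% and 19.8% in KD4. The same direction was called in both knock-downs in 7.92% (higher) and 12.1% (lower). The median difference over all genes was -0.01 in KD3 and 0.002 in KD4.

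Of 22 tested partners of DNA methyltransferases, 0 were higher and 1 lower in KD3, and 4 were higher and 3 lower in KD4 (median 0.001 and 0.07). PCNA, the sliding clamp that ties DNMT1 to the replication fork, was the one lower in both, with -0.36 (limma, adjusted p = 0.00428) and -0.42 (adjusted p = 0.00152). CDCA7, a partner of the remodeller HELLS, was lower in KD4 (-0.61, adjusted p = 0.00127), with -0.24 in KD3 (adjusted p = 0.0868). DPPA3, which shields the maternal genome from demethylation, was higher in KD4 (0.48, adjusted p = 0.0281), with 0.39 in KD3 (adjusted p = 0.0755). Its probe was dim (4.39 in CTL and 4.87 in KD4), though well above background on all 9 arrays.

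Of 8 tested readers other than the members, 2 were higher in KD3 and 4 in KD4, and none was lower by the limma call in either (median 0.10 and 0.11). ZBTB33, the zinc finger protein Kaiso, was higher in both, with 0.46 (limma, adjusted p = 0.00912) and 0.39 (adjusted p = 0.0146). MBD1 was the second in KD3, with 0.30 (adjusted p = 0.0297) and 0.25 (adjusted p = 0.0495). ZBTB4 was higher in KD4, with 0.45 (adjusted p = 0.00359).

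Of 15 tested genes of demethylation and base excision repair, 1 was higher and 3 lower in KD3, and 2 were higher and 4 lower in KD4 (median -0.07 and -0.09). CXXC4 encodes a CXXC protein that binds the TET2 protein and lowers its amount, which the arrays do not measure. It is the nearest named coding neighbour upstream of TET2. It gave 10.39, 10.45 and 10.52 in CTL, 9.43, 9.30 and 9.29 in KD3 and 9.37, 9.44 and 9.41 in KD4. The groups stood apart by more than 0.9, and the difference was -1.11 in KD3 (limma, adjusted p = 2.68e-05) and -1.05 in KD4 (adjusted p = 3.55e-05). CXXC4 was called in each of 20 alternatives. CXXC5, its relative, was lower by -0.70 (adjusted p = 6.90e-04) and -0.36 (adjusted p = 0.0123). IDH2, which makes the cofactor of TET enzymes, was lower by -0.67 (adjusted p = 0.00810) and -0.60 (adjusted p = 0.00943). GADD45B, a stress gene, was higher by 0.45 (adjusted p = 0.00681) and 0.78 (adjusted p = 3.63e-04). Its paralogue GADD45A was lower in KD4 by -0.73 (adjusted p = 7.87e-04), with -0.30 in KD3 (adjusted p = 0.0507). APOBEC3B, a cytidine deaminase, was the other gene higher in KD4 (0.48, adjusted p = 0.0485), with 0.49 in KD3 (adjusted p = 0.0567).

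Of 13 NuRD subunits, the complex of MBD2, none was called in KD3, and 3 were higher and 1 lower in KD4 (median 0.009 and 0.07). GATAD2A, a subunit that contacts MBD2, was higher in KD4 by 0.38 (limma, adjusted p = 0.0132), with 0.13 in KD3 (adjusted p = 0.366). Its relative GATAD2B was not called in KD3 (0.10, adjusted p = 0.465) or in KD4 (0.18, adjusted p = 0.136). MTA2 was higher in KD4 by 0.36 (adjusted p = 0.0415).

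The methyl donor of the writers is S-adenosylmethionine, made by methionine adenosyltransferases. Of 11 tested genes of this cycle, 2 were higher and 2 lower in both knock-downs, and 1 more was lower in KD4 (median 0.04 and 0.009). MAT2B, the regulatory subunit, gave 9.53, 9.45 and 9.23 in CTL, 11.31, 11.28 and 11.24 in KD3 and 11.38, 11.33 and 11.37 in KD4. The groups stood far apart, by 1.87 in KD3 (limma, adjusted p = 7.58e-06) and 1.96 in KD4 (adjusted p = 3.77e-06), and the second MAT2B probe gave 1.98 and 1.97. MAT2A, the catalytic subunit, was higher by 0.36 (adjusted p = 0.0155) and 0.44 (adjusted p = 0.0047). MAT1A, the catalytic subunit of liver, was lower by -0.66 (adjusted p = 3.16e-04) and -0.56 (adjusted p = 5.76e-04), and AHCY, which removes the product that inhibits methyltransferases, by -0.45 (adjusted p = 0.00444) and -0.34 (adjusted p = 0.0121).

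Germline genes are known to be silenced by promoter methylation in somatic cells, and 9 of 20 on the list were tested. In KD3, 0 were higher and 1 lower, and in KD4, 2 were higher and 1 lower (median 0.02 and -0.22). Several of these probes were dim, such as SYCP3 (3.69 in CTL), PIWIL2 (4.53) and HORMAD1 (4.60), whose KD4 value is the median. The medians thus rest partly on dim probes. SOHLH2, a germ cell transcription factor, gave 6.79, 6.67 and 6.99 in CTL, 5.53, 5.32 and 5.21 in KD3 and 4.96, 4.90 and 4.69 in KD4. It was lower by -1.47 (limma, adjusted p = 1.16e-04) and -1.97 (adjusted p = 2.15e-05). The other SOHLH2 probe did not pass the filter and was not tested. TDRD1 (0.50, adjusted p = 0.0265) and TEX14 (0.40, adjusted p = 0.0133) were the genes higher in KD4.

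DNMT1, UHRF1 and PCNA are expressed with S phase, and 20 genes of that phase were set beside them. Of these, 1 was higher and 3 lower in KD3, and 2 were higher and 6 lower in KD4 (median -0.13 in both). CDC6, which loads the replicative helicase, was higher by 0.67 in both (limma, adjusted p = 0.00204 and 0.00152), and E2F1 was lower by -0.52 (adjusted p = 9.88e-04) and -0.39 (adjusted p = 0.00295). The part of cell cycle phase in the values of the members was not tested.

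**Figure D5:**
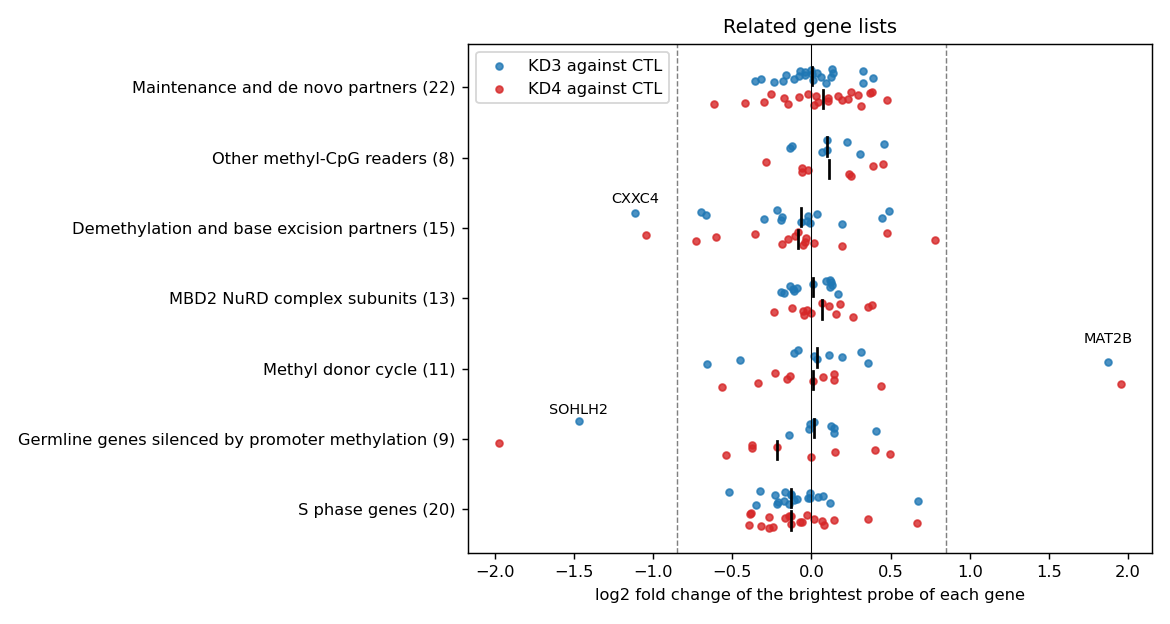
log2 difference from CTL of each tested gene of 7 related lists in KD3 and KD4, on the brightest probe, with the list median as a black tick and the number of tested genes in brackets. Medians lie between -0.22 and 0.11, and MAT2B, CXXC4 and SOHLH2 stand furthest from 0.

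Markers of the line and of other cell types were set side by side. All 8 HEK293 markers were tested. Their summed signal ran from 155473 to 167703 in CTL, 141923 to 156969 in KD3 and 165153 to 169477 in KD4. VIM was the brightest of them (16.89 in CTL), so that the sum mostly follows VIM. The sums and the numbers tested do not show the identity of the line, since markers of other cell types were tested too. Of the 8 HEK293 markers, 5 were lower in both knock-downs, and 1 was higher in KD4. The lower ones included PAX2 (-2.41 and -2.65, with -0.01 and 0.06 on its other probe) and NEFM (-1.21 and -1.24). Of 12 markers of other cell types, 8 were tested, with summed signals of 1492 to 1647 in CTL, 1459 to 1525 in KD3 and 1612 to 1704 in KD4, and HBB and PECAM1 were not well above background on any array. ACTA1, of skeletal muscle, was higher in both knock-downs (0.71, limma, adjusted p = 3.59e-04, and 0.65, adjusted p = 4.52e-04). In KD3, CD68, of macrophages, was higher (0.39, adjusted p = 0.00445) and COL1A1, of fibroblasts, lower (-0.37, adjusted p = 0.0164), and neither was called in KD4 (-0.003 and 0.02). The part of these marker differences in the values of the members was not tested.

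The profiles closest to those of the members called in both knock-downs, taken on the called probe, were found among 19851 (TET2) and 19852 (MBD2) probes of named genes, by the root mean square distance of the differences from the CTL mean over 9 arrays. For MBD2 (NM_015832) they were AQP4 (0.118), CCBE1 (0.136) and SPON1 (0.139). For TET2 (A_33_P3238685) they were ADGRL2 (0.0802), MYSM1 (0.0841) and CCND2 (0.0843).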

How the data were processed

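RNA of 9 cultures (3 a group) was measured on Agilent one-colour arrays. The authors deposited the intensity of each spot (Feature Extraction 10.10, green processed signal, background-subtracted and detrended) and a table of log2 values, quantile normalized over the 9 arrays in GeneSpring. That table was an alternative here.

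Control spots and outlier-flagged spots (260 to 634 of 58717) were left out, and log2 signals were quantile normalized and spots of a probe averaged. Of 42405 probes, 21 without a value on every array were dropped and 32276 were tested, being well above background on all 3 arrays of 1 or more groups, on at least 0.5 of their spots. Accessions were matched to RefSeq symbols (GRCh38.p14), naming 25413 probes of 19479 genes; the array was designed on an earlier build, and probe positions are not given. Groups were compared with limma 3.58.1 in R 4.3.3 (lmFit, eBayes, 1 mean a group). Single values were tested by exact permutation over arrays. The fit was tested on simulated data. Deviations of samples with the same replicate number correlated at -0.08 to 0.14, and at 0.07 to 0.14 for KD4 with CTL. The main fit did not pair samples, and the replicate number as a block was an alternative. The number of arrays limits the precision.

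The text names all members, SMCHD1, and from each list the genes with large calls in both knock-downs, or else the 2 with the largest mean difference among those well above background on all arrays. Other genes named from a list's calls, the neighbours and the chromosome values were chosen after their values were seen. Members and lists were chosen with earlier results of these data known. Alternatives were 75th percentile scaling, normexp (offset 50), the authors' values, no filter, a filter on all 9 arrays, the t-test of the methods (adjusted or not), fits of 1 knock-down with CTL alone, replicate or slide as a block, the 1.8-fold threshold, and leaving out each array. Columns of other samples numbered 0.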

Additional observations from a re-analysis of the deposited data

How the results depend on the processing

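Over 51 results and 20 alternatives (1017 values), 972 kept direction and side of the threshold, 35 lost a call, 10 gained one and 0 called values changed sign, while 24 uncalled values did. The MBD2 probe of NM_015832 ranged from -1.59 to -1.24 in KD3 and -1.70 to -1.29 in KD4 and was called in 19 of 20 alternatives for each, the exception being the methods' t-test after adjustment (adjusted p = 0.0961 and 0.0663). Member probes called in KD3 (4) numbered 0 by the methods' t-test after adjustment, 2 in the fit with CTL alone and 1 at 1.8-fold. In KD4 (3) they numbered 1 with no filter, 0 by the adjusted t-test, 5 by the unadjusted t-test and 1 at 1.8-fold. In both (2), they numbered 1 with the authors' values, with no filter, with CTL alone and at 1.8-fold, and 0 by the adjusted t-test. KD4 against KD3 (0) gave 3 by the unadjusted t-test. That t-test called 523, 1958 and 0 of all probes after adjustment (KD3, KD4, KD4 against KD3) and 7473, 9739 and 4916 before it.

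Leaving out 1 array gave 3 to 5 calls in KD3, 1 to 3 in KD4, 1 to 2 in both and 0 to 1 for KD4 against KD3. KD4 fell to 1 when CTL replicate 2, CTL replicate 3 or KD4 replicate 3 was left out, the count in both fell to 1 without any of these or KD4 replicate 1, and KD4 against KD3 rose to 1 without KD3 replicate 1. Scaling to the 75th percentile left 2 NuRD subunits called in KD4 instead of 4, and 2 S phase genes called in KD3 instead of 4. That scaling put 57.2% instead of 38.4% of the calls of KD4 against KD3 among the higher probes.

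The replicate number as a block called 5318 probes in KD3, 8121 in KD4 and 289 between them. The DNMT3B call in KD3 was lost under this block (adjusted p = 0.0532), with the adjusted t-test (0.175) and with CTL alone (0.0622). The causes of these changes were not tested. Signal over background limits the dim TET2 probe of NM_017628.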

Other observations

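Differences from CTL varied with the chromosome of a gene. Over tested genes with a known chromosome, on the brightest probe, the 458 genes of chromosome 20 differed from CTL by -0.20 (KD3) and -0.10 (KD4) at the median, and 24.9% of them were called lower in both, beside 12.1% of all genes. The median of these genes on single arrays, relative to the CTL mean, was -0.24, -0.20 and -0.21 in KD3 and -0.11, -0.10 and -0.11 in KD4, while the CTL arrays lay between -0.01 and 0.01. Chromosome 21 (194 genes, 0.12 and 0.21) and chromosome 17 (988 genes, 0.12 and 0.19) had the highest medians averaged over both knock-downs, and chromosome 8 (556 genes) had 0.14 in KD3 and 0.02 in KD4. DNMT3B, PCNA, E2F1 and AHCY, which the text gives as lower in 1 or both knock-downs, all lie on chromosome 20. They differed from CTL by -0.35, -0.36, -0.52 and -0.45 in KD3 and by -0.17, -0.42, -0.39 and -0.34 in KD4. Of the list genes on chromosome 17, CDC6, ZBTB4, TEX14, CHD3 and CD68 were called higher in 1 or both knock-downs, and LHX1 and COL1A1 lower. ZBTB33, higher in both, lies on the X chromosome, whose 608 genes had medians of 0.07 and 0.09. The chromosomes were looked at after the values were seen, and no cause of their shifts was tested.

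Chromosome 18, which carries MBD2 and also AQP4 and CCBE1, had the largest share of genes with large calls lower in both knock-downs, 4.89% of 225, beside 2.4% of all genes. Called lower in both at any fold were 19.1% of its genes, beside 12.1% of all genes. Some of its genes on the lists were called higher. MBD1 was called higher in both knock-downs (0.30 and 0.25, limma, adjusted p = 0.0297 and 0.0495) and CXXC1 in KD4 (0.39, adjusted p = 0.00354), and the brightest MBD2 probe was not called (-0.09 and -0.03). The chromosome's median difference was -0.06 in KD3 and -0.09 in KD4. AQP4 and CCBE1 were picked for their closeness to the MBD2 probe of NM_015832, so that their lower values follow from that choice.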
